A study of Mus musculus with 4 samples.

Results

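The MAP kinase phosphatases are the 10 catalytically active dual specificity phosphatases that have a MAP kinase binding domain. Their rows were found in the expression table by gene symbol: Dusp1, Dusp2, Dusp4, Dusp5, Dusp6, Dusp7, Dusp8, Dusp9, Dusp10 and Dusp16. All 10 were among the 23420 gene symbols of the table. The family was chosen by its normalised read counts in EpiKO and WT, as seen in earlier work on this table, so these values are a description of it. RNA-seq had been done on tumour-infiltrating myeloid cells carrying CD11b and CD200R1, the receptor of the surface protein CD200, isolated by a cell sorter out of orthotopic cutaneous squamous cell carcinomas (cSCC) of the mouse strain FVB/N. Of the tumours, some were EpiKO (K14Cre;CD200fl/fl), which gave 2 libraries, and some were wild type (WT), which gave 2 libraries. In EpiKO the keratin 14 promoter drives Cre, as a rule in keratinocytes and other epithelial cells rather than in myeloid cells, and the tumours are labelled as lacking CD200. Age, sex, the genotype of the tumour-bearing mice and the number of mice behind a library are not given, so p-values measure only the spread between these libraries, which may be technical. The question of the comparison is how expression in the myeloid cells differs when the tumour lacks CD200.

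MAP kinases are switched on by phosphorylation of a threonine and a tyrosine in their activation loop, and MAP kinase phosphatases remove both phosphates. Many of the phosphatase genes are themselves induced by MAP kinase signalling and so form a negative feedback. By location and substrate the family falls into nuclear inducible enzymes (Dusp1, Dusp2, Dusp4 and Dusp5), cytoplasmic enzymes selective for ERK (Dusp6, Dusp7 and Dusp9), and enzymes that prefer the stress kinases JNK and p38 (Dusp8, Dusp10 and Dusp16). In mouse macrophages Dusp1 is known as a brake on p38 and on the cytokine response to microbial products.

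The upstream sequences of 5 members are shown because they carry the contrasts of the results. Dusp8 and Dusp2 were lower in EpiKO and Dusp6 was higher, whereas Dusp1 and Dusp5, of the same inducible kind as Dusp2, had overlapping groups. Each is the run of 250 bases before the RefSeq start site on GRCm38.p6, written 5′ to 3′ on the strand of the gene, with motif matches in capitals.
Dusp8 (chr7:142095285-142095534, minus strand): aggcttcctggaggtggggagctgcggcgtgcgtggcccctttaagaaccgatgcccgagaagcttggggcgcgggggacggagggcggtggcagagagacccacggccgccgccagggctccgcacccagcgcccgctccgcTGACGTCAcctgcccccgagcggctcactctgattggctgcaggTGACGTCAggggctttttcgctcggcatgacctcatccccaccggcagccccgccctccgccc
Dusp2 (chr2:127335909-127336158, plus strand): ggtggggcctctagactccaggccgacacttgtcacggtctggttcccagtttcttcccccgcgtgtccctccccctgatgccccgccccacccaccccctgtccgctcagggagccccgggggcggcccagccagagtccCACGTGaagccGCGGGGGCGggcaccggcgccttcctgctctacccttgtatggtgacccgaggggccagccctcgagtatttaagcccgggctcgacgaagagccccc
Dusp6 (chr10:99262981-99263230, plus strand): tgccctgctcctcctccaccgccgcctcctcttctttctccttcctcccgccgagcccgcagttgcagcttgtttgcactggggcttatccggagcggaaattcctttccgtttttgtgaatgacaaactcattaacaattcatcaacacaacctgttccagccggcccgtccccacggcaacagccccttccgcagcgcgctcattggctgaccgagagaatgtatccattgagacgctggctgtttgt
Dusp1 (chr17:26508473-26508722, minus strand): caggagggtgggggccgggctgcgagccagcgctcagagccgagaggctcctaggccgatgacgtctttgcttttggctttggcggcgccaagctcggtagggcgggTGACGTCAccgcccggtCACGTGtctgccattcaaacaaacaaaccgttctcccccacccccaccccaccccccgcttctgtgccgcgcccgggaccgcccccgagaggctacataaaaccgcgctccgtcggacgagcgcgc
Dusp5 (chr19:53528895-53529144, plus strand): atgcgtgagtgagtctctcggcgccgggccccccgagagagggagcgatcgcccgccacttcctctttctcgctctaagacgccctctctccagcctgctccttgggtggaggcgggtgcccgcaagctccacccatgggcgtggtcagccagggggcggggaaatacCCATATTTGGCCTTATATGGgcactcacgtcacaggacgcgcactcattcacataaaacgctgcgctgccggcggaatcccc
Capitals mark matches on either strand to 8 motifs: the cyclic AMP response element (CRE) TGACGTCA, the AP-1 site TGACTCA or TGAGTCA, the CArG box bound by serum response factor, the E-box CACGTG, the ETS site ACGGAAG or CCGGAAG, the EGR site GCGGGGGCG or GCGTGGGCG, the NF-kB site, and the TATA box TATAAA. Dusp8 held 2 copies of the CRE, ending 100 and 56 bases before the start, and Dusp1 held 1, ending 136 bases before it. A CRE was found in 1.55% of the 32851 upstream regions of this length in the RefSeq table. In Dusp5, 2 CArG boxes lay end to end, from 82 to 63 bases before the start, and 1.47% of all upstream regions held a CArG box. Dusp2 held an E-box, which 6.02% of all regions held, and an EGR site, which 3.06% held. Dusp1 also held an E-box. The windows of Dusp6, Dusp7, Dusp10 and Dusp16 held none of these letters. Across the other motifs, 4.46% of all regions held an AP-1 site, 8.68% an ETS site, 7.25% an NF-kB site and 12.4% a TATA box, and none of the 8 members in the table did. A match is a description of the letters only. By the GENCODE M21 loci given below, the windows of Dusp1, Dusp8 and Dusp10 lie inside the span of the gene, and that of Dusp5 reaches into it. The matches of Dusp1 and Dusp8 are thus upstream of the RefSeq start but downstream of the outermost GENCODE start. The GC content of the 8 upstream regions ran from 56.4% in Dusp6 to 77.2% in Dusp7, with a median over all regions of 52.4%. Dusp4 and Dusp9 were not among the entries used.

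**Figure D1:**
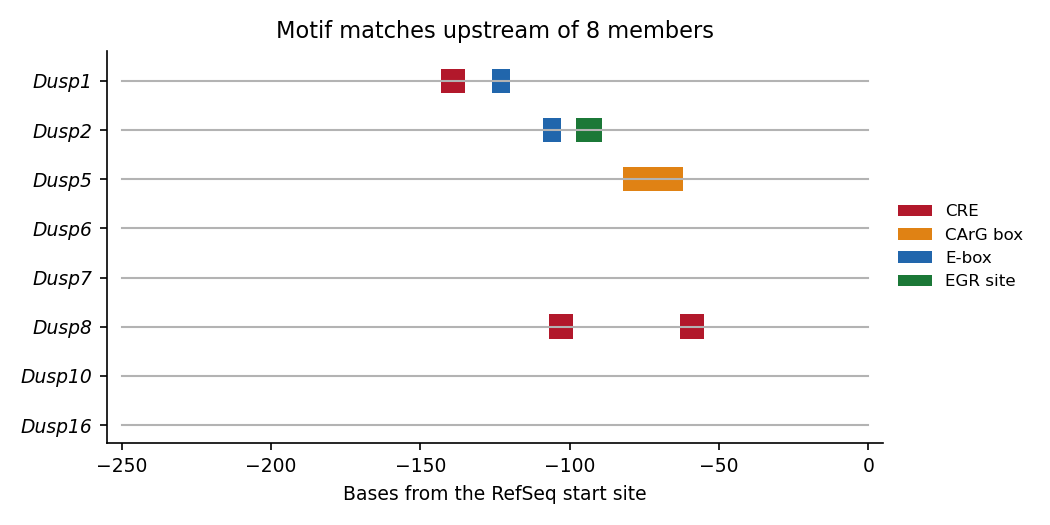
Positions of motif matches in the 250 bases before the RefSeq start site of 8 members (x axis, bases from the start site; 1 line per gene, coloured boxes for matches). Dusp8 has 2 CRE matches and Dusp1 has 1, Dusp5 has 2 adjoining CArG boxes, and Dusp6, Dusp7, Dusp10 and Dusp16 have no match.

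Dusp2, Dusp4 and Dusp8 fell in EpiKO. In Dusp6 both EpiKO values were above the WT values and in Dusp9 and Dusp10 below them, but these 3 members did not pass the test. Dusp1, the most abundant of the family, lay between 19165 and 20078 normalised reads in all 4 libraries. Within the nuclear inducible enzymes, Dusp2 and Dusp4 stood in EpiKO at 0.407 and 0.427 times their WT mean, and Dusp1 at 1.00 times. Of the 10 members, all of which passed the filter on low values, 3 were called, all lower in EpiKO (limma, Benjamini-Hochberg adjusted p under 0.05 over all genes tested), and 7 were not. Of all 12463 genes tested, 0.947% were called, 0.53% lower and 0.417% higher in EpiKO. In 6 members the groups did not overlap, with EpiKO below WT in 5 and above it in 1. Over all genes tested, non-overlap held for 47.1%, with EpiKO below WT in 23.8% and above it in 23.3%. An absolute log2 fold change of at least 1 was reached by 5 members, Dusp2, Dusp4, Dusp6, Dusp8 and Dusp9, and by 8.99% of all genes tested. Since results of these data were in view when the family was taken up, its p-values and intervals are a description too, and nothing is read from these shares. In bulk RNA, fewer cells of a type and less RNA per cell cannot be told apart.

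**Figure D2:**
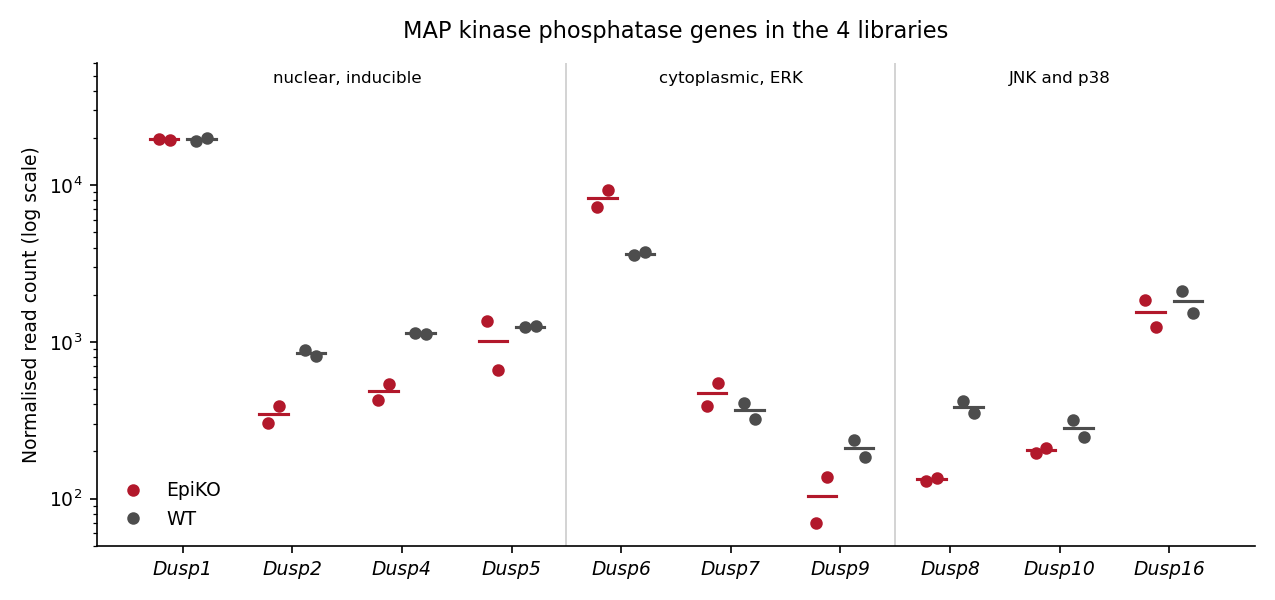
Normalised read counts (y axis, log scale) of the 10 MAP kinase phosphatase genes in each library, EpiKO in red and WT in grey, with a bar at the mean of the 2 libraries. The EpiKO points of Dusp2, Dusp4 and Dusp8 lie below both WT points, those of Dusp6 lie above them, and those of Dusp1, at 19752 and 19524, sit between the WT points.

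Values are read counts that the authors had divided by 1 size factor per library. A difference is given as log2 fold change, EpiKO over WT, on the scale log2(value + 1), with its moderated standard error (SE). The libraries held between 15884132 and 21244158 reads in genes, and 1 read was worth 0.841 to 1.16. Cd200 had values of 17.2 and 15.1 in EpiKO and 92.7 and 59.7 in WT, which does not check the labels, since the sorted cells are not epithelial. Cd200r1, whose product was sorted on, was at 1101 and 612 in EpiKO and at 318 and 293 in WT (limma, adjusted p = 0.115). Itgam, the gene of CD11b, was at no less than 26151 in any library, Ptprc, the gene of the leukocyte antigen CD45, at no less than 11880, and the macrophage genes Csf1r and C1qa at no less than 45316 and 52683. The Y-linked gene Ddx3y was at 1843 and 1742 in EpiKO and at 2310 and 1938 in WT. Uty, also Y-linked, was at 422 and 436 in EpiKO and at 523 and 467 in WT. For the Y-linked genes Eif2s3y and Kdm5d the groups overlapped. Eif2s3y was at 1141 and 950 in EpiKO and at 1270 and 1036 in WT, and Kdm5d at 519 and 467 in EpiKO and at 394 and 513 in WT. Xist, the RNA of the inactive X chromosome, was at 1228 and 1510 in EpiKO and at 522 and 361 in WT. Xist and these Y-linked genes were chosen after their values were seen, and the part of the sexes in the results was not tested.

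Among the nuclear enzymes, Dusp2 is an immediate early phosphatase of activated immune cells that acts on ERK and p38. It had 301 and 387 normalised reads in the EpiKO libraries, against 884 and 808 in the WT libraries. Both EpiKO libraries were below both WT libraries, and the gap between the groups, 420 reads, was wider than the spread of 86.0 within EpiKO and of 76.6 within WT. Dusp2 fell, with a log2 fold change of -1.30 and an SE of 0.162 (limma, adjusted p = 0.0471). Its locus is chr2:127336159-127338376 on the plus strand of mm10, the shortest span of the family at 2218 bases.

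Dusp4, a nuclear phosphatase of ERK, JNK and p38, had 427 and 539 normalised reads in EpiKO and 1138 and 1125 in WT. The WT libraries were nearly the same, and both EpiKO libraries were lower by a gap of 586. Dusp4 also fell, with a log2 fold change of -1.24 and an SE of 0.146 (limma, adjusted p = 0.0471). Its locus is chr8:34807297-34819894, plus strand (mm10).

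Dusp1, the founding member of the family, is a classical immediate early gene that favours p38 and JNK. It had 19752 and 19524 normalised reads in EpiKO and 19165 and 20078 in WT, so both EpiKO libraries lay between the WT libraries. Its log2 fold change was 0.0016 (SE 0.121, 95% interval -0.31 to 0.31, adjusted p = 0.996 by limma). Its locus is chr17:26505590-26562128, minus strand (mm10). Other immediate early genes were abundant as well. Fos was at 36378 and 39910 in EpiKO and at 31210 and 38503 in WT, with overlapping groups. Zfp36, which encodes the mRNA decay factor tristetraprolin, was higher in both EpiKO libraries, at 36543 and 37421 against 29727 and 35737 in WT. Fos and Zfp36 were chosen after their values were seen. Fosb was lower in both EpiKO libraries, at 31012 and 25522 against 44206 and 34907 in WT. Egr1 was higher in both, at 3702 and 3576 against 2413 and 1832 in WT, and limma called none of these genes.

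Dusp5, a nuclear phosphatase selective for ERK, was set apart by its spread within EpiKO. It had 1364 and 665 normalised reads in EpiKO and 1238 and 1263 in WT. EpiKO replicate 1 was above both WT libraries and EpiKO replicate 2 below them, a ratio of 2.05 between the EpiKO libraries against 1.02 between the WT libraries. The log2 fold change was -0.39 (SE 0.344, 95% interval -1.28 to 0.50, adjusted p = 0.675 by limma), and it was 0.13 without EpiKO replicate 2. Between the same 2 libraries the heat shock gene Hspa1a, chosen after its values were seen, differed more and in the other direction, at 544 and 2142 in EpiKO and at 1906 and 1795 in WT. An antisense gene, AC137853.2, shares 22.1% of the exon bases of Dusp5, and since the strand setting of the counting is not given, reads of the pair cannot be told apart. The locus of Dusp5 is chr19:53529109-53542431, plus strand (mm10). Smaller stretches were shared with a gene on the other strand by Dusp8 (1.36% of exon bases, with Gm32786) and Dusp1 (0.332%, with Ergic1).

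Of the cytoplasmic ERK phosphatases, Dusp6 had the larger level and the larger difference. This enzyme binds ERK directly, and its gene is a known transcriptional target of ERK signalling. It had 7308 and 9344 normalised reads in the EpiKO libraries, against 3579 and 3741 in the WT libraries. Both EpiKO libraries were above both WT libraries, with a gap of 3567 that was wider than the spread of 2036 within EpiKO and of 161 within WT. The mean was 2.27 times the WT mean, with a log2 fold change of 1.18 (SE 0.153, 95% interval 0.79 to 1.56). Its adjusted p of 0.050003 by limma lay on the threshold and did not pass it, while DESeq2 on the recovered reads gave an adjusted p of 4.05e-08 and edgeR one of 0.0525. Its locus is chr10:99263231-99267489, plus strand (mm10).

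Dusp7, a relative of Dusp6 with the same substrate, had 391 and 550 normalised reads in EpiKO and 409 and 320 in WT. The groups overlapped, and the log2 fold change was 0.36 (SE 0.223, 95% interval -0.21 to 0.93, adjusted p = 0.539 by limma). Its locus is chr9:106368632-106375724, plus strand (mm10). Dusp9, the X-linked member of this group, best known from placenta, was the least abundant of the family by normalised reads. It had 70.0 and 138 in EpiKO and 238 and 184 in WT, from 65 and 146 reads in EpiKO and 205 and 219 in WT. The groups did not overlap, but the gap of 46.1 was smaller than the spread of 68.0 within EpiKO, and the log2 fold change was -1.08 (SE 0.372, 95% interval -2.04 to -0.125, adjusted p = 0.266 by limma). Its locus is chrX:73639419-73643514, plus strand (mm10).

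Among the phosphatases of JNK and p38, Dusp8 had the largest absolute log2 fold change of the family. It had 129 and 136 normalised reads in EpiKO and 420 and 351 in WT. The EpiKO libraries were close to each other and both were below both WT libraries by a gap of 215, against a spread of 68.2 within WT. Dusp8 fell to 0.344 times the WT mean, a log2 fold change of -1.53 with an SE of 0.169 (limma, adjusted p = 0.0425). Its locus is chr7:142079490-142095843, minus strand (mm10).

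Dusp10, which restrains JNK and p38 in mouse immune cells, had 196 and 210 normalised reads in EpiKO and 318 and 247 in WT. The groups did not overlap, but the gap of 37.3 was smaller than the spread of 70.5 within WT, and the log2 fold change was -0.46 (SE 0.185, 95% interval -0.94 to 0.0058, adjusted p = 0.324 by limma). Its locus is chr1:184013302-184075636, plus strand (mm10). Dusp16, a JNK phosphatase that shuttles between nucleus and cytoplasm, had 1851 and 1235 in EpiKO and 2125 and 1537 in WT. Its libraries varied within both groups, and the log2 fold change was -0.26 (SE 0.257, 95% interval -0.92 to 0.41, adjusted p = 0.719 by limma). Without EpiKO replicate 2 its log2 fold change was 0.034. Its locus is chr6:134715468-134792625, minus strand (mm10).

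The 3 calls rest on all 4 libraries together. With any 1 library left out, none of the members passed: the adjusted p was then between 0.0828 and 0.228 for Dusp2, between 0.0748 and 0.231 for Dusp4 and between 0.1002 and 0.189 for Dusp8 (limma). Their log2 fold changes stayed between -1.48 and -1.12, between -1.40 and -1.07, and between -1.65 and -1.40, and that of Dusp6 between 1.00 and 1.35. Limma without a trend also ended the 3 calls, at an adjusted p of 0.104 for Dusp2, 0.102 for Dusp4 and 0.0731 for Dusp8. By edgeR Dusp4 (adjusted p = 0.0463) and Dusp8 (adjusted p = 0.0433) passed and Dusp2 (adjusted p = 0.0517) did not, among 0.842% of genes called. By DESeq2 4 members passed, Dusp2, Dusp4, Dusp6 and Dusp8, among 6.85% of genes called.

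**Figure D3:**
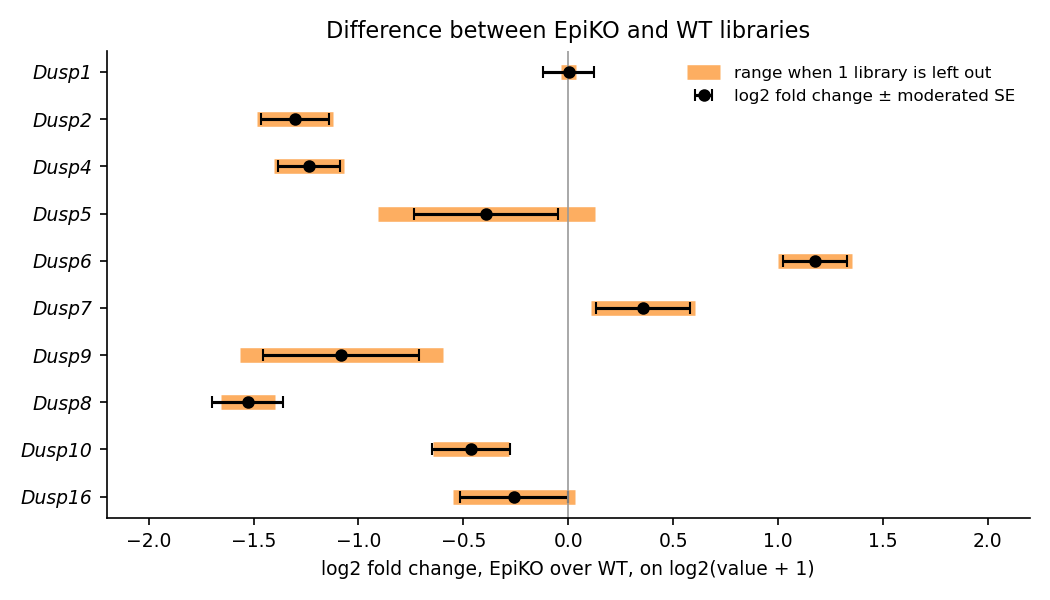
Log2 fold change of each member, EpiKO over WT (x axis, on log2(value + 1)), with its moderated SE as a black bar and, in orange, the range of the value when 1 library is left out. The orange ranges of Dusp2, Dusp4, Dusp8, Dusp9 and Dusp10 lie below 0 and those of Dusp6 and Dusp7 above it, while those of Dusp1, Dusp5 and Dusp16 include 0.

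Levels of different members were compared per length, as RPKM computed from the recovered reads, with the total of reads in genes as library size and exon lengths from GENCODE M21. On this scale Dusp1 averaged 321 ± 3.16 in EpiKO and 327 ± 17.8 in WT, and Dusp6 came next at 144 ± 27.5 in EpiKO and 64.5 ± 3.40 in WT (SD, n = 2 each). Dusp5 was next, at 22.1 ± 10.4 in EpiKO and 27.9 ± 0.991 in WT. Dusp2 and Dusp4 lay side by side, at 9.32 ± 1.81 and 9.55 ± 1.73 in EpiKO and at 23.3 ± 0.988 and 22.8 ± 0.299 in WT, and did not differ from each other beyond their spread in either group. In WT they were above Dusp16, at 12.9 ± 2.66, and in EpiKO they were within its spread, at 10.7 ± 2.82. Dusp7 was seventh in both groups. The lowest levels, in both groups, were those of Dusp10, Dusp9 and Dusp8, with Dusp8 at 1.47 ± 0.0808 in EpiKO and 4.36 ± 0.452 in WT.

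Summed over all 10 members, the level per length (RPKM) was 514 and 548 in the EpiKO libraries and 487 and 509 in the WT libraries. Dusp1 made up 61.97% and 58.9% of that sum in EpiKO and 64.6% and 66.7% in WT. Dusp6 made up 24.2% and 29.8% in EpiKO and 12.8% and 13.1% in WT. The nuclear group, Dusp1, Dusp2, Dusp4 and Dusp5, summed to 364 and 359 in EpiKO and to 388 and 414 in WT, while the cytoplasmic ERK group summed to 132 and 175 in EpiKO and to 73.4 and 76.0 in WT. Between libraries of 1 group the members varied by a median absolute log2 difference of 0.36 in EpiKO and 0.19 in WT, and all genes tested by 0.19 in EpiKO and 0.18 in WT.

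The ratio of Dusp6 to Dusp4, taken within each library and so free of library scaling, was 14.96 and 15.2 in EpiKO and 2.75 and 2.91 in WT. The ratio of Dusp6 to Dusp2 was 15.5 and 15.4 in EpiKO and 2.59 and 2.96 in WT. Both ratios were close within a group, and neither overlapped between groups. The ratio of Dusp6 to its cytoplasmic relative Dusp7 was 20.0 and 18.2 in EpiKO and 9.37 and 12.5 in WT. Within the stress kinase group, the ratio of Dusp16 to Dusp8 was 8.95 and 5.67 in EpiKO and 3.16 and 2.73 in WT, whereas that of Dusp16 to Dusp10 was 3.68 and 2.30 in EpiKO and 2.61 and 2.43 in WT, with overlapping groups. These ratios combine values that chose the family for description and carry no test.

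**Figure D4:**
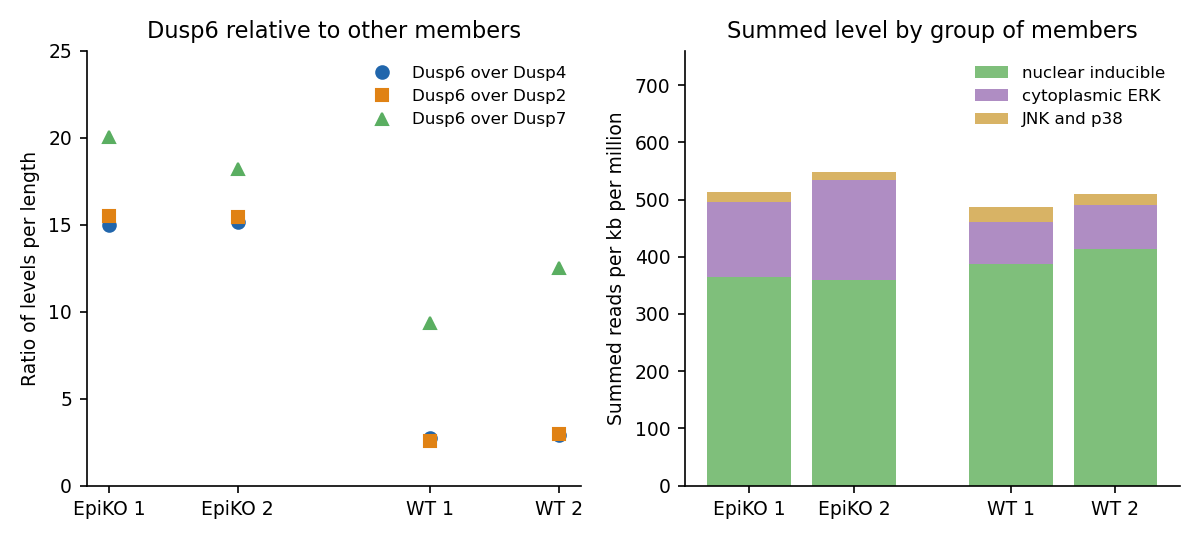
Left, ratio of the level per length of Dusp6 to that of Dusp4, Dusp2 and Dusp7 in each library. Right, summed RPKM of the nuclear inducible, cytoplasmic ERK, and JNK and p38 members, stacked, in each library. Ratios to Dusp4 and Dusp2 are near 15 in EpiKO libraries and below 3 in WT libraries, while the stacked sums lie between 487 and 548.

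The remaining dual specificity phosphatases, called atypical because they lack the MAP kinase binding domain, were counted for comparison. Of 17 listed genes 11 passed the filter on low values, none was called by limma or edgeR, 1 had an unadjusted p under 0.05 and 1 was called by DESeq2. That gene was Dusp18, with 222 and 189 normalised reads in EpiKO and 752 and 435 in WT (log2 fold change -1.48, SE 0.288, adjusted p = 0.104 by limma). Dusp3, the most abundant of them, a phosphatase also known as VHR, had 3120 and 2262 in EpiKO and 4247 and 3256 in WT (log2 fold change -0.48, SE 0.215, adjusted p = 0.378 by limma). Of the 11 atypical genes tested, 9 had a negative log2 fold change. In 7 of the 11 both EpiKO libraries were below both WT libraries and in 0 above, against 23.8% and 23.3% of all genes tested. The median absolute log2 fold change was 0.77 over the 10 MAP kinase phosphatases, 0.15 over the 11 atypical genes and 0.18 over all genes tested. The 10 members were taken up with their values in view, so a test of the difference between these medians would carry no meaning, and nothing is read from it.

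Tyrosine phosphatases that reach MAP kinases through a kinase interaction motif form the other small group of specific MAP kinase phosphatases. Of its 3 genes, Ptpn5 and Ptprr did not pass the filter on low values. Ptpn7, a leukocyte phosphatase of ERK and p38, had 2667 and 2500 normalised reads in EpiKO and 1436 and 1607 in WT. Both EpiKO libraries were higher, and the log2 fold change of 0.76 (SE 0.115) did not pass, at an adjusted p of 0.0615 (limma).

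The kinases that these enzymes act on, and those above them, gave no call by limma. Beside the counts here and in the other gene lists, 15.6% of all genes tested had an unadjusted p under 0.05. DESeq2 called 6.85% of all genes tested in either direction. Of 10 MAP kinases tested, 2 had an unadjusted p under 0.05 and none was called by edgeR or DESeq2, with a median log2 fold change of 0.040. Mapk3, which encodes a kinase of the ERK group and was picked with its values known, was at 5198 and 5305 in EpiKO and at 4932 and 4644 in WT. Mapk7, the gene of the large ERK5 kinase, was at 681 and 735 in EpiKO and at 518 and 505 in WT, with an adjusted p of 0.145 (limma), and Mapk11, a p38 isoform, at 52.8 and 55.8 in EpiKO and at 78.8 and 142 in WT, with an adjusted p of 0.287 (limma). Of 7 MAP kinase kinases, 1 had an unadjusted p under 0.05, and none was called by edgeR or DESeq2. That gene was Map2k3, an activator of p38, at 1376 and 1239 in EpiKO and at 2077 and 1700 in WT (limma, adjusted p = 0.173).

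Of 21 kinases of the level above, 2 had an unadjusted p under 0.05, none was called by edgeR and 1 by DESeq2. Map3k8, the kinase that links inflammatory receptors to ERK in macrophages, was at 452 and 562 in EpiKO and at 876 and 743 in WT (log2 fold change -0.68, SE 0.162, adjusted p = 0.142 by limma). Among 14 scaffolds and effector kinases, 4 had an unadjusted p under 0.05, against 15.6% of all genes tested. None was called by limma or edgeR and 1 by DESeq2, against 6.85% of all genes tested. Ksr1, a scaffold that holds RAF, MEK and ERK together, was at 265 and 253 in EpiKO and at 117 and 105 in WT, a log2 fold change of 1.22 (SE 0.173) with an adjusted p of 0.0567 (limma).

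None of the genes commonly used as readouts of ERK output was called by limma or edgeR. Of 13 tested, 10 had a positive log2 fold change, and the median was 0.42, against -0.0021 over all genes tested. Of the 13, 7 had an unadjusted p under 0.05, against 15.6% of all genes tested. DESeq2 called 3 higher and 1 lower, against 6.85% of all genes tested called by it in either direction. The list was chosen with earlier results of these data known, so these counts are a description. It holds no member of the family, of which Dusp6 and Dusp4 went in opposite directions, with log2 fold changes of 1.18 and -1.24. Spry4, an inhibitor of receptor signalling to ERK, had 133 and 140 normalised reads in EpiKO and 17.4 and 6.72 in WT, from 15 and 8 reads in WT. Its log2 fold change of 3.53 (SE 0.489) did not pass, at an adjusted p of 0.0549 (limma). The transcription factor gene Etv4 had 180 and 243 in EpiKO and 73.0 and 82.4 in WT (log2 fold change 1.42, SE 0.236, adjusted p = 0.0733 by limma). Spred1, another ERK inhibitor, went the other way, at 2069 and 2060 in EpiKO and 2937 and 3257 in WT (log2 fold change -0.58, SE 0.110, adjusted p = 0.0908 by limma). Phlda1 and Ccnd1, chosen after their values were seen, had overlapping groups, at 970 and 1034 and at 4951 and 4163 in EpiKO, against 1059 and 747 and 4219 and 6527 in WT.

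**Figure D5:**
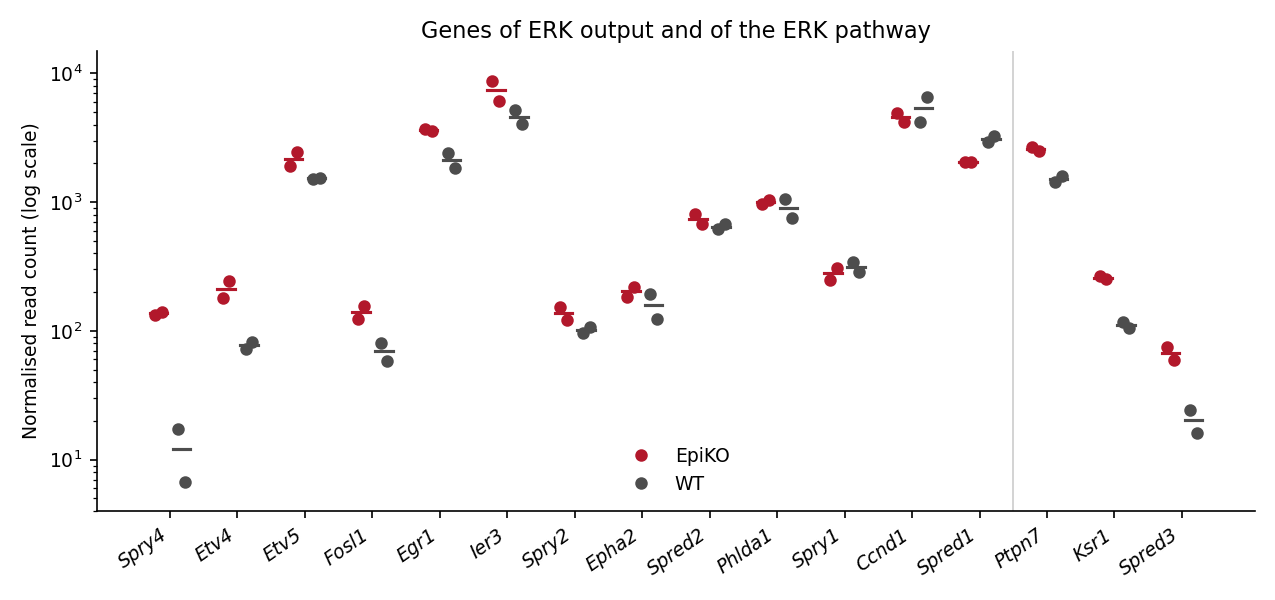
Normalised read counts (y axis, log scale) in each library, EpiKO in red and WT in grey with a bar at the mean, for the 13 tested ERK output genes and, right of the line, Ptpn7, Ksr1 and Spred3. The EpiKO points of Spry4 lie at 133 and 140 against 17.4 and 6.72 in WT, and those of Ccnd1 and Phlda1 overlap the WT points.

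Of 8 other feedback inhibitors of RAS and ERK, none was called by limma or edgeR, 1 had an unadjusted p under 0.05 and 1 was called by DESeq2. This was Spred3, at 75.4 and 59.5 in EpiKO and at 24.3 and 15.97 in WT (log2 fold change 1.71, SE 0.370, adjusted p = 0.118 by limma). Transcription factors controlled by MAP kinases had a median log2 fold change of -0.15 over 19 tested genes. None was called by limma, edgeR or DESeq2, and 4 had an unadjusted p under 0.05, against 15.6% of all genes tested. Jund was at 10449 and 11700 in EpiKO and at 20243 and 14269 in WT (log2 fold change -0.62, SE 0.2004, adjusted p = 0.238 by limma). Among 14 immediate early and dissociation stress genes, none was called by limma or edgeR and 3 had an unadjusted p under 0.05, against 15.6% of all genes tested. DESeq2 called 1, Egr1, at 3702 and 3576 in EpiKO and 2413 and 1832 in WT. Egr1 is also on the list of ERK output genes and was counted there too. The 13 genes of p38-regulated mRNA decay and cytokines, also a list chosen with earlier results known, had a median log2 fold change of 0.64. None was called by limma or edgeR. In 7 of them the unadjusted p was under 0.05, against 15.6% of all genes tested, and 6 were called higher by DESeq2, against 6.85% of all genes called by it in either direction. One of the 7, Tnf, picked with its values known, was lower in both EpiKO libraries, at 464 and 628 in EpiKO and at 963 and 701 in WT (limma, adjusted p = 0.301). Of the 6, Ptgs2, the gene of the inducible cyclooxygenase, was at 9413 and 5097 in EpiKO and at 2715 and 2735 in WT (adjusted p = 0.133 by limma).

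Transcripts of other cell types moved with the groups or with single libraries. The 8 keratinocyte markers summed to 44.1 and 45.4 normalised reads in EpiKO and to 4282 and 108 in WT, so that WT replicate 1 stood apart. Without it, Dusp2, Dusp4, Dusp8 and Dusp6 had log2 fold changes of -1.24, -1.23, -1.40 and 1.14. That fit has a single WT library, whose keratinocyte sum was still above both EpiKO sums. The 6 neutrophil markers found summed to 2065 and 2862 in EpiKO and to 5487 and 5015 in WT. None of them was called by limma, though DESeq2 called 2 lower, against 6.85% of all genes in either direction. Mmp9, the most abundant of them, was at 1307 and 1311 in EpiKO and at 4120 and 2325 in WT. It was a large part of these sums, and no sum without Mmp9 was taken. Retnlg, a more restricted neutrophil gene, had 7.54 and 20.8 in EpiKO and 55.6 and 166 in WT, and was picked with its values known. All 6 had a negative log2 fold change, but in 4 of them the groups overlapped. Among these 4, Csf3r was at 514 and 1323 in EpiKO and at 1154 and 1215 in WT. S100a9 was at 38.8 and 117 in EpiKO and at 64.9 and 737 in WT. Dendritic cell markers, 7 in all, summed to 127 and 178 in EpiKO and to 1425 and 742 in WT. Cd207, the gene of langerin, was at 23.7 and 23.6 in EpiKO and at 1201 and 590 in WT. Without Cd207 the other 6 markers summed to 103 and 154 in EpiKO and to 224 and 152 in WT, and these sums overlap. Of the 5 markers tested, 3 had both EpiKO libraries below both WT libraries and 0 above, against 23.8% and 23.3% of all genes tested. Ccr7, one of the 3, was at 32.3 and 35.9 in EpiKO and at 116 and 56.3 in WT. In 2 of the 5 the log2 fold change was positive, among them Cd209a, at 43.1 and 71.8 in EpiKO and at 56.8 and 29.4 in WT. Xcr1 and Clec9a, picked with their values known, had no more than 2.32 in any library, but do not stand for dendritic cells as a whole. The part of keratinocyte, neutrophil and dendritic cell RNA in the levels of the phosphatases was not tested.

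The 6 monocyte markers summed to 116723 and 69264 in EpiKO and to 38808 and 41844 in WT. Of this, Chi3l3 was at 39879 and 1898 in EpiKO and at 1263 and 2421 in WT, so that EpiKO replicate 1 stood apart, and without Chi3l3 the sums were 76843 and 67366 in EpiKO and 37545 and 39423 in WT. F13a1 was at 51773 and 53702 in EpiKO and at 25605 and 19996 in WT, Ccr2 had overlapping groups, and 2 of the 6 markers had a negative log2 fold change. Without EpiKO replicate 1, Dusp2, Dusp4, Dusp8 and Dusp6 had log2 fold changes of -1.12, -1.07, -1.49 and 1.35. That fit has a single EpiKO library, and the part of monocyte RNA was not tested. The 8 macrophage markers summed to 231174 and 315513 in EpiKO and to 286961 and 247190 in WT. In 3 of the 8 both EpiKO libraries were above both WT libraries and in 0 below, against 23.3% and 23.8% of all genes tested. Mrc1, one of the 3, was at 61387 and 67477 in EpiKO and at 44319 and 37127 in WT (limma, adjusted p = 0.146). The log2 fold change was negative in 5 of the 8. T cell genes, of which Cd3e and Cd8a were picked with their values known, were at or near 0. Cd3e was at 0 and 0 in EpiKO and at 2.32 and 0 in WT, and Cd8a was at 0 in all 4 libraries. Of the 7 T and NK cell markers found, Cd4, also made by macrophages, was the main part of a sum of 178 and 1002 in EpiKO and of 1907 and 624 in WT. Mast cell and basophil markers, 7 in all, summed to 184 and 146 in EpiKO and to 301 and 66.4 in WT. The 5 B cell markers summed to 20.5 and 64.3 in EpiKO and to 82.3 and 74.8 in WT. Fibroblast markers summed to 17941 and 26749 in EpiKO and to 31236 and 20844 in WT, and endothelial markers to 327 and 360 in EpiKO and to 393 and 296 in WT, 6 genes each. Of the marker genes tested, Cd207 alone was called by limma.

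Profiles over the 4 libraries were compared by the Euclidean distance of centred log2 values. The genes nearest to Dusp8 were Podn, Cers4 and Anpep, at distances of 0.0646, 0.0833 and 0.119, and 6 of 12462 genes lay within 0.2. The genes nearest to Dusp1 were Cpsf3, Pgp and Upf2, at distances of 0.0120, 0.0155 and 0.0168, but 3107 genes lay within 0.2 of this flat profile. With 4 libraries such likeness is a description only.

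In gene structure the members have much in common. The longest coding transcript has 4 exons in 6 of the 10 members, 3 in Dusp6 and Dusp7, and 7 in Dusp8 and Dusp16. The coding sequence runs from 954 bases in Dusp2 to 1989 in Dusp8, with Dusp16 close to the upper end at 1980. All 10 lie on different chromosomes of mm10.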

How the data were processed

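RNA was measured in 4 libraries of sorted CD11b and CD200R1 positive tumour myeloid cells, 2 EpiKO and 2 WT. Per the submitters' processing notes, the genome build was mm10 and the tools named are DESeq2, featureCounts (1.5.0-p3), STAR (2.5.2b) and bcl2fastq (2.17). The annotation, the strand setting and the handling of multiply aligned reads are not stated there. What the authors deposited is a normalised signal: each gene's read count over a size factor of its library. The evidence is in the values, since 100% of them, within 1e-06 of a read, were whole multiples of the smallest, so that whole reads could be recovered. All 4 columns were matched to samples by title, and replicates were numbered in sample order.

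The 12463 genes that reached a value of 10 in 2 or more libraries were tested on log2(value + 1) with limma 3.58.1 in R 4.3.3 (trend, robust moderation, two-sided), adjusted by Benjamini-Hochberg over all of them. Calls need an adjusted p under 0.05, and intervals are 95%. An exact permutation test of 2 against 2 cannot go below p = 0.333, so all p-values rest on sharing the spread across genes. edgeR 4.0.16 (quasi-likelihood, TMM) and DESeq2 1.42.0 (Wald) on the recovered reads, other pseudocounts, filters and scalings, and leaving out each library were alternatives. On the recovered reads edgeR called 105 genes and DESeq2 854.

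The members and the 24 gene lists (227 entries, 3 found under an older symbol and 2 not found) were chosen with earlier results of these data known. Named genes are all members, up to 3 genes with the smallest p of each list (for marker lists, with the highest mean), Cd200, Cd200r1, Itgam and Ptprc as checks of the sort, and the genes nearest in profile to the members with the highest mean and the largest absolute log2 fold change. Others are said to be chosen after their values were seen. Lengths and coordinates are from GENCODE M21, upstream sequences from RefSeq (GRCm38.p6), where 8 of 10 members matched.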

Additional observations from a re-analysis of the deposited data

How the results depend on the processing

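Of 130 member log2 fold changes over 13 alternatives, 103 kept their direction and their side of the threshold, 18 lost and 3 gained it, and 6 changed sign, all of members not called. Dusp1 was at -0.027 with equal library totals and at -0.018 with quantile normalization, and between -0.032 and 0.035 with a library left out, negative without EpiKO replicate 1 (-0.0068) and without WT replicate 1. With a library left out Dusp5 lay between -0.91 and 0.13 and Dusp16 between -0.55 and 0.034, both positive only without EpiKO replicate 2. The members called numbered 3 in the main test, 0 for limma without trend, 0 with any 1 library left out, and between 2 and 4 otherwise. Dusp6 passed with a pseudocount of 5 (adjusted p = 0.0484), with no filter (0.0413) and by DESeq2, and Dusp2 missed with equal library totals (0.0514), quantile normalization (0.0506) and edgeR (0.0517). Of all genes, 52 were higher and 66 lower. Limma without trend gave 13 and 18, DESeq2 465 and 389, and leaving out a library 0 to 2 and 0 to 4. In these last fits a group with a single library takes its spread from the other group. The cause of these changes was not tested. No paired analysis was possible because the labels give no replicate numbers. Each group has 2 libraries, and no member had fewer than 65 reads in a library. The EpiKO libraries differed by a ratio of 2.05 for Dusp5 and 1.97 for Dusp9.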
